A study of Mus musculus with 6 samples.

Results

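The Hox cluster genes were the 39 of the 55492 genes in the deposited expression table whose symbol is Hoxa, Hoxb, Hoxc or Hoxd followed by a number. They encode homeodomain transcription factors and lie in 4 clusters, each on its own chromosome, in which the members are numbered by paralog group from 1 at the anterior end to 13 at the posterior end. Hox genes set position along the body axis: the low-numbered groups pattern the hindbrain, the middle groups the neck and trunk, and the high-numbered groups the lumbosacral region, limbs and genitalia, whereas the forebrain and midbrain form without them. Retinoic acid switches the clusters on from the anterior end in the embryo, and Polycomb complexes, which place methyl groups on histone H3 lysine 27, keep them silent in cells that should not use them. Cells of the adult hindbrain and spinal cord keep part of this code, so that Hox transcripts also mark where along the neural tube a cell came from.

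RNA was taken from cells that had been pulled out of the dissociated whole brain with magnetic microbeads against O4, a surface lipid of late oligodendrocyte precursors and immature oligodendrocytes. The comparison was between 3 WT and 3 Npc1-/- mice at postnatal day 16, with 1 library of poly(A) RNA per mouse and no treatment. NPC1 moves cholesterol out of lysosomes, and its loss causes Niemann-Pick disease type C. The Npc1-/- mice carried the Npc1nih allele in every cell and were F1 hybrids of the BALB/cJ and C57BL6/J strains, bred from Npc1+/- parents of each. Whole brain includes the hindbrain but not the spinal cord, and no further sort of the bead-bound cells is described. Levels are given as TPM (transcript abundance corrected for transcript length and brought to a common total in each sample) or as scaled TPM, which is TPM divided by a size factor for each sample so that the typical gene has the same level in all 6.

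Npc1 itself stood at 53.28, 50.35 and 45.54 TPM in WT replicates 1 to 3 and at 4.1, 4.42 and 3.16 TPM in the Npc1-/- replicates. The groups did not overlap. All 14 oligodendrocyte lineage markers checked were detected, and Mbp, which encodes myelin basic protein, took 18.8% to 22.2% of all TPM in WT and 20.2% to 26.1% in Npc1-/- samples. Depth was estimated at 41500000 to 50500000 fragments per sample. Npc1-/- replicate 3 was the only sample with Xist above 0.01 TPM and without the Y-linked Ddx3y, so the sexes were not balanced between the groups. Fewer cells of a type and less RNA per cell cannot be told apart in such bulk samples.

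Hox transcripts were present at low levels, and which of the 39 genes were detected followed the order of the clusters. Of the 39 genes, 5 had a mean of at least 0.5 TPM over the 6 samples: Hoxd8, Hoxa4, Hoxd4, Hoxd1 and Hoxd3. Without WT replicate 1 the number was 8. The 5 were 12.8% of the Hox genes, against 27.5% of all genes in the table and 61.9% of protein-coding genes. A mean of at least 0.1 TPM was reached by 18 Hox genes and a mean of at least 1 TPM by 3, namely Hoxd8 with 2.49, Hoxa4 with 1.2 and Hoxd4 with 1.02 TPM. The 5 genes had a mean of at least 0.5 TPM in each genotype, and the 18 genes had a mean of at least 0.1 TPM in each genotype, so none passed through 1 group alone. Hoxd3, however, passed in WT through 1 sample, at 1.86 TPM in WT replicate 2 against 0.05 and 0.08 TPM in WT replicates 1 and 3. Without WT replicate 2 its mean over the other samples was below 0.5 TPM.

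The 18 genes with at least 0.1 TPM all belonged to paralog groups 1 to 8, which hold 23 of the 39 genes. None of the 16 genes of groups 9 to 13 reached that level. Groups 1 to 8 made up 98.1% to 99.6% of the summed Hox level in every sample. Above 0 in all 6 samples were 20 Hox genes. Hoxd9 was the only one of these from groups 9 to 13, at a mean of 0.075 TPM. A further 12 genes were above 0 in some samples, and 7 were listed at 0 in all 6: Hoxa11, Hoxb1, Hoxb13, Hoxc12, Hoxd10, Hoxd12 and Hoxd13. Hoxb1, a gene of rhombomere identity in the early hindbrain, was the only one of the 7 from groups 1 to 8.

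**Figure D1:**
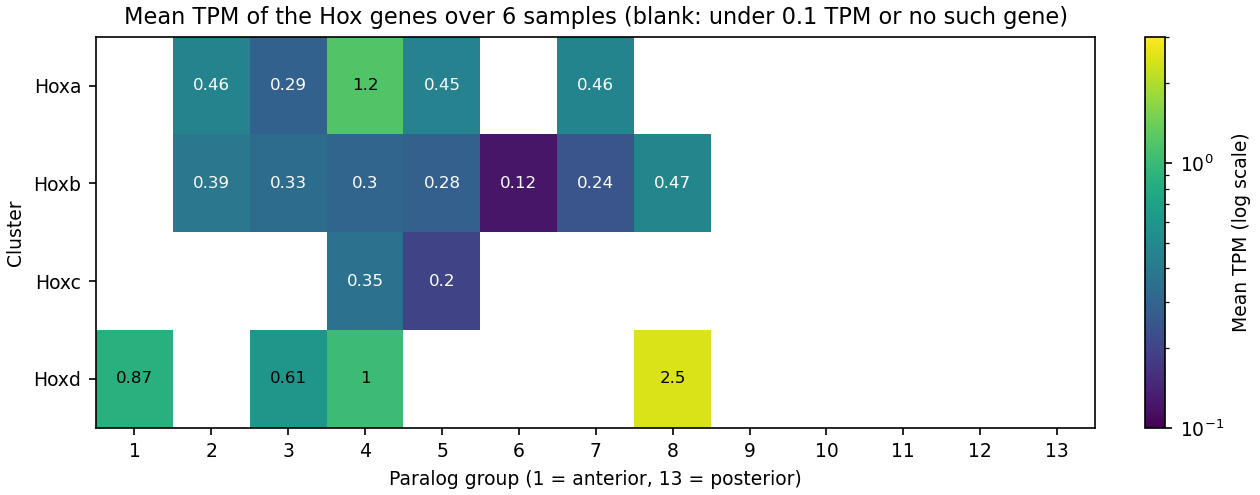
Each filled cell gives the mean TPM over the 6 samples of 1 of the 18 Hox genes with at least 0.1 TPM, with the 4 clusters as rows, the paralog groups as columns and the color on a log scale; cells are blank where the gene is under 0.1 TPM or the mouse has no such gene. The filled cells all lie in groups 1 to 8, and the highest is Hoxd8 with 2.49 TPM.

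The clusters contributed unequally. Hoxd supplied 38.6% to 55.5% of the summed Hox level through Hoxd8, Hoxd4, Hoxd1 and Hoxd3, whereas its 5 posterior members ranged from a listed 0 to 0.075 TPM. Hoxa supplied 21.3% to 30.8%, and Hoxa4 was its only gene with a mean of at least 0.5 TPM. Hoxb supplied 17.3% to 25.1%, spread over 7 genes between 0.123 TPM for Hoxb6 and 0.473 TPM for Hoxb8. Hoxc supplied 4.47% to 9.08%, and only Hoxc4 with 0.353 TPM and Hoxc5 with 0.20 TPM had a mean of at least 0.1 TPM in that cluster. In the annotation, Hoxc5 spans Hoxc6, Hoxc8 and Hoxc9 on the same strand, and Hoxa3 spans Hoxa4, Hoxa5 and Hoxa6, so the split of reads between these neighbors is uncertain.

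Levels stepped down before group 9 in 3 of the clusters. Hoxa7 had a mean of 0.462 TPM and the next gene, Hoxa9, 0.010 TPM. Hoxb8 had 0.473 TPM and Hoxb9 0.0117 TPM, and Hoxd8 had 2.49 TPM and Hoxd9 0.075 TPM. In Hoxc the levels already dropped from 0.20 TPM in Hoxc5 to 0.0683 TPM in Hoxc6 and 0.0317 TPM in Hoxc8. Hoxd8 and Hoxd9 lie 4406 bases apart on chromosome 2 (GRCm38, plus strand) at 74704615 to 74707933 and 74697727 to 74700208. Their RefSeq promoter windows, from 250 bases before the transcription start to 50 bases after it, are shown because this pair has the largest difference in TPM across the step. The windows are on GRCm38.p6 at chr2:74704365-74704664 for Hoxd8 and chr2:74697513-74697812 for Hoxd9, both on the plus strand, with every CG dinucleotide in capitals.
Hoxd8: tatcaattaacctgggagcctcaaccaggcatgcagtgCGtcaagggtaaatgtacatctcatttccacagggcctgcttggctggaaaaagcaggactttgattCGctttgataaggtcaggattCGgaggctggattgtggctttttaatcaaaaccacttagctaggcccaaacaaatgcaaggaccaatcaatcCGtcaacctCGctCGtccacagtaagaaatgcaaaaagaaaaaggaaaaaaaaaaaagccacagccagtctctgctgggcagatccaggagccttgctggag
Hoxd9: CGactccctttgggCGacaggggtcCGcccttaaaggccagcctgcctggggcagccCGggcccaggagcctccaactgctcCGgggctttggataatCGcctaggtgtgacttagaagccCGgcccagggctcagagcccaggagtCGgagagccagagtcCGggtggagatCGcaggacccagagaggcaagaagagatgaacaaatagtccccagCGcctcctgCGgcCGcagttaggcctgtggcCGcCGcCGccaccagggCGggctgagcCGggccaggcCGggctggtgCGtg
The Hoxd8 window held 6 CG dinucleotides and a GC content of 46.7%, and the Hoxd9 window held 20 and 68.3%. The order was the other way round at the step in the Hoxa cluster, where the Hoxa7 window held 9 CG dinucleotides and the Hoxa9 window 4. CG dinucleotides are the sites of DNA methylation.

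RefSeq windows were found for 22 of the 39 Hox genes, 24 windows in all. Their median was 14.5 CG dinucleotides, against 7 over 32851 promoter windows of the same length. The 13 windows of groups 1 to 8 had a median of 13 and the 11 windows of groups 9 to 13 a median of 20, with ranges of 4 to 29 and 4 to 45 that overlapped. The motif TGATNNAT, to which HOX proteins bind together with PBX cofactors, was searched on both strands, where matches may overlap each other. It was found in 4 of the 24 Hox windows (16.7%) and in 8.85% of all windows. The 4 windows were those of Hoxa2, Hoxb1, Hoxb8 and 1 of the 2 windows of Hoxd11. A match describes these letters only and says nothing about binding in these cells.

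To compare the genotypes, log2 of scaled TPM plus 0.5 was fitted with limma over the 15245 genes with a mean of at least 0.5 TPM. A gene was called when its adjusted p (Benjamini-Hochberg) was below 0.05 and its log2 fold change was at least 0.1 in size. None of the 5 Hox genes tested was called, against 0.813% of all genes tested (124 of 15245, 0.4% higher and 0.413% lower in Npc1-/-). At an unadjusted p below 0.05, 3 of the 5 had higher values in Npc1-/- (Hoxa4, Hoxd4 and Hoxd8), against 10.6% of all genes tested. In the same 3 genes all Npc1-/- samples lay above all WT samples, which held for 13.3% of all genes tested. All 5 had a log2 fold change above 0, as 51.0% of all genes tested had, and their median was 0.57 against 0.01 over all genes tested.

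Hoxd8, a middle-group member that patterns the trunk, had the highest level of all Hox genes. Its scaled TPM was 0.973, 1.76 and 2.54 in WT replicates 1 to 3 against 2.62, 3.84 and 3.99 in Npc1-/- replicates 1 to 3. The lowest Npc1-/- sample lay just above the highest WT sample. The means were 1.76 ± 0.785 and 3.48 ± 0.749 (SD, n = 3 each), a ratio of 1.98. The log2 fold change was 0.86 with a standard error of 0.28, and it did not pass the threshold (limma adjusted p = 0.136). Hoxd3os1 overlaps Hoxd8 on the other strand.

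Hoxa4, a group 4 gene of the caudal hindbrain and neck, has a single annotated transcript (chromosome 6, 52189671 to 52191753, minus strand). Its scaled TPM was 0.594, 0.804 and 1.09 in WT against 1.47, 1.44 and 2.12 in Npc1-/- replicates 1 to 3. The groups did not overlap. The means were 0.829 ± 0.248 and 1.68 ± 0.384 (SD, n = 3 each), a ratio of 2.02. The log2 fold change was 0.71 with a standard error of 0.21, and it had the smallest adjusted p of the Hox genes without passing the threshold (limma adjusted p = 0.108). These values rest on an estimated 33.0 to 75.3 fragments per sample.

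Hoxd4, the group 4 gene of the Hoxd cluster, was at a scaled TPM of 0.517, 0.985 and 0.741 in WT replicates 1 to 3. In Npc1-/- replicates 1 to 3 it was at 1.41, 1.33 and 1.27, with every value above the WT samples. The means were 0.748 ± 0.234 and 1.34 ± 0.0705 (SD, n = 3 each). The log2 fold change was 0.57 with a standard error of 0.19 (limma adjusted p = 0.137), short of the threshold. Hoxd4 lies within the span of Hoxd3 on the same strand and also overlaps Mir10b and Gm28230 there. Its reads may therefore not all be its own.

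Hoxd1, which in mice acts in the wiring of pain-sensing neurons, was at a scaled TPM of 0.417, 0.895 and 0.626 in WT replicates 1 to 3. In Npc1-/- replicates 1 to 3 it was at 1.35, 1.18 and 0.743, so the groups overlapped. The log2 fold change was 0.48 with a standard error of 0.24 (limma adjusted p = 0.299).

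Hoxd3, which patterns the upper neck skeleton, was the least reproducible of the 5. Its scaled TPM was 0.0386, 1.68 and 0.0770 in WT against 0.790, 0.281 and 0.743 in Npc1-/- replicates 1 to 3. WT replicate 2 alone held most of the WT level. The means were 0.599 ± 0.937 and 0.605 ± 0.281 (SD, n = 3 each), a ratio of 1.01. In deposited TPM the mean was 0.663 in WT and 0.55 in Npc1-/-, so the mean and the log2 fold change differed in direction there. The log2 fold change was 0.29 with a standard error of 0.55 (limma adjusted p = 0.806), and it was -0.058 without WT replicate 1 and -0.0082 without WT replicate 3. Hoxd3 has 6 annotated transcripts and shares its strand with Hoxd4 and Gm28230, and the sum of Hoxd3 and Hoxd4 also overlapped between the groups, at 0.556 to 2.67 in WT and 1.61 to 2.20 in Npc1-/- samples.

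**Figure D2:**
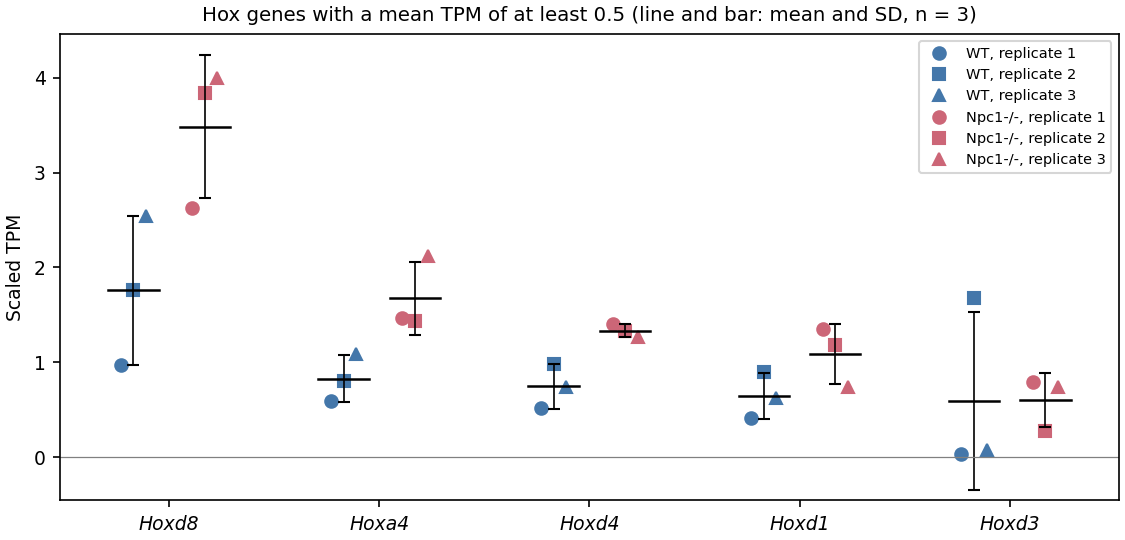
Scaled TPM of the 5 Hox genes with a mean of at least 0.5 TPM, 1 point per sample, with the mean (line) and SD (bar) of each genotype. The 3 Npc1-/- points lie above the 3 WT points for Hoxd8, Hoxa4 and Hoxd4, and the groups overlap for Hoxd1 and Hoxd3.

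The 13 Hox genes between 0.1 and 0.5 TPM were compared in a fit with a lower filter, a mean of at least 0.1 TPM, which admitted 18 Hox genes among 19105 genes. None of the 18 was called, against 0.377% of all genes in that fit. All 18 had a log2 fold change above 0, between 0.17 for Hoxc4 and 0.86 for Hoxd8, while 50.8% of all genes in that fit did. The 18 genes are not independent measurements, since they share the samples and clusters. At an unadjusted p below 0.05, 5 genes had higher values in Npc1-/- (Hoxa4, Hoxa7, Hoxb8, Hoxd4 and Hoxd8), against 9.34% of all genes, or 19.4% in either direction. In 7 genes (Hoxa2, Hoxa3, Hoxa4, Hoxa7, Hoxb8, Hoxd4 and Hoxd8) all Npc1-/- samples lay above all WT samples, against 12% of all genes, or 24.8% without overlap in either direction. The median log2 fold change of the 18 was 0.30 and that of all genes in that fit 0.01.

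On the scale of log2 of scaled TPM plus 0.5, Hoxa7 and Hoxb8 had the next largest differences after Hoxd8 and Hoxa4. The added 0.5 lowers the fold change of low genes, and by the ratio of mean scaled TPM Hoxa7 (2.75), Hoxb7 (2.60) and Hoxb8 (2.56) lay above Hoxa4 (2.02) and Hoxd8 (1.98). These ratios rest on few fragments. In WT replicate 1 the estimate was 0.5 to 2.6 for Hoxa7, 0.4 to 3.1 for Hoxb7 and 2.6 to 15.2 for Hoxb8. The lower and upper numbers assume the shortest and longest annotated transcript. For Hoxb7 the groups overlapped. Hoxa7, a trunk-patterning gene, was at a scaled TPM of 0.0386, 0.298 and 0.453 in WT against 0.554, 1.03 and 0.592 in Npc1-/- replicates 1 to 3. Its log2 fold change was 0.70 with a standard error of 0.26 (limma adjusted p = 0.198). Hoxb8, known for its role in grooming behavior and in a lineage of microglia, was at 0.154, 0.307 and 0.395 in WT against 0.436, 1.02 and 0.743 in Npc1-/- replicates 1 to 3. Its log2 fold change was 0.63 with a standard error of 0.22 (limma adjusted p = 0.182).

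Both genes were lowest in WT replicate 1. The anterior genes Hoxa2 and Hoxb2, which specify hindbrain segments, had smaller differences. Hoxa2 was at a scaled TPM of 0.425, 0.298 and 0.356 in WT against 0.690, 0.444 and 0.468 in Npc1-/- replicates 1 to 3, with a log2 fold change of 0.26 and a standard error of 0.16 (limma adjusted p = 0.431). Hoxb2 was at 0.432, 0.343 and 0.154 in WT against 0.536, 0.433 and 0.344 in Npc1-/- replicates 1 to 3, where the groups overlapped.

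**Figure D3:**
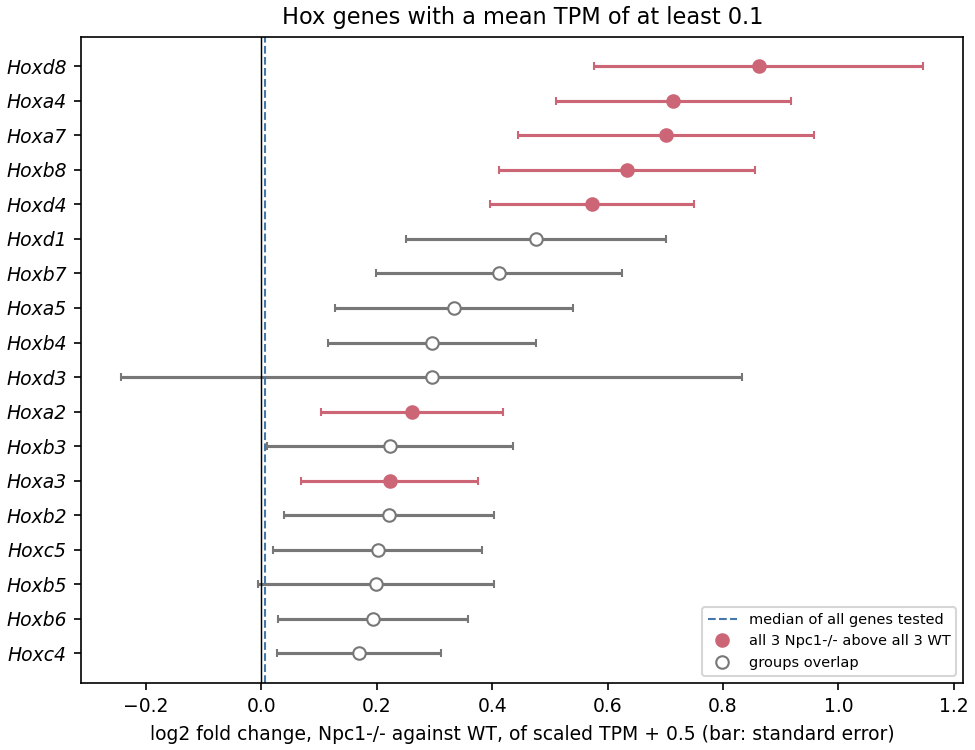
log2 fold change (Npc1-/- against WT) with its standard error for the 18 Hox genes with a mean of at least 0.1 TPM; filled points mark the 7 genes in which all Npc1-/- samples lay above all WT samples. All 18 points lie to the right of 0 and of the median of all genes (dashed line, 0.01), from 0.17 for Hoxc4 to 0.86 for Hoxd8.

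Below 0.1 TPM the direction was less uniform. Of the 14 Hox genes above 0 in at least 1 sample but under a mean of 0.1 TPM, 11 had the higher mean in Npc1-/- and 3 (Hoxb9, Hoxc9 and Hoxc13) in WT. Over all 32 Hox genes above 0 anywhere, 29 had the higher mean in Npc1-/-, against 50.8% of the 28469 genes above 0 anywhere. These counts are of scaled TPM. In deposited TPM the mean was higher in WT for Hoxd3 (0.663 against 0.55) and Hoxd9 (0.0767 against 0.0733). It was 0.01 in both genotypes for Hoxa9. Among the 29, Hoxa13, Hoxc10, Hoxc11 and Hoxd11 were above 0 in only 1 sample each. Hoxd9 was at a scaled TPM of 0.0232 to 0.108 in WT and 0.0454 to 0.124 in Npc1-/- samples, which overlapped.

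The summed scaled TPM of the 39 Hox genes was 5.10, 9.79 and 9.41 in WT replicates 1 to 3 against 13, 14.7 and 15.4 in Npc1-/- replicates 1 to 3. The ranges of the genotypes were apart, and WT replicate 1 lay well below the other WT samples. The means were 8.10 ± 2.60 and 14.4 ± 1.25 (SD, n = 3 each), a ratio of 1.78. The ratio was 1.72 without Hoxd8 and 1.84 without Hoxd3, and the groups stayed apart in both. It was 1.5 without WT replicate 1 and 1.71 without Npc1-/- replicate 3, also with no overlap.

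WT replicate 1 had the lowest value of the 6 samples in 11 of the 18 Hox genes with at least 0.1 TPM, whereas it was lowest in 23.5% of all genes at that level. By cluster, the sums did not overlap between genotypes for Hoxa (ratio 1.90), Hoxb (1.83) and Hoxd (1.73) and overlapped for Hoxc (1.46). By paralog group, the sum of groups 4 to 8 was 3.38, 5.66 and 7.5 in WT against 8.76, 11.5 and 11.8 in Npc1-/- replicates 1 to 3, a ratio of 1.94 with no overlap. The sum of groups 1 to 3 was 1.68, 3.94 and 1.74 in WT against 4.18, 2.92 and 3.37 in Npc1-/- replicates 1 to 3, a ratio of 1.42 with overlap. Only WT replicate 2 overlapped, and Hoxd3 alone held 1.68 of its 3.94. In WT replicates 1 and 3 Hoxd3 was at 0.0386 and 0.0770. Whether the ratios of these groups of genes differ was not tested.

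**Figure D4:**
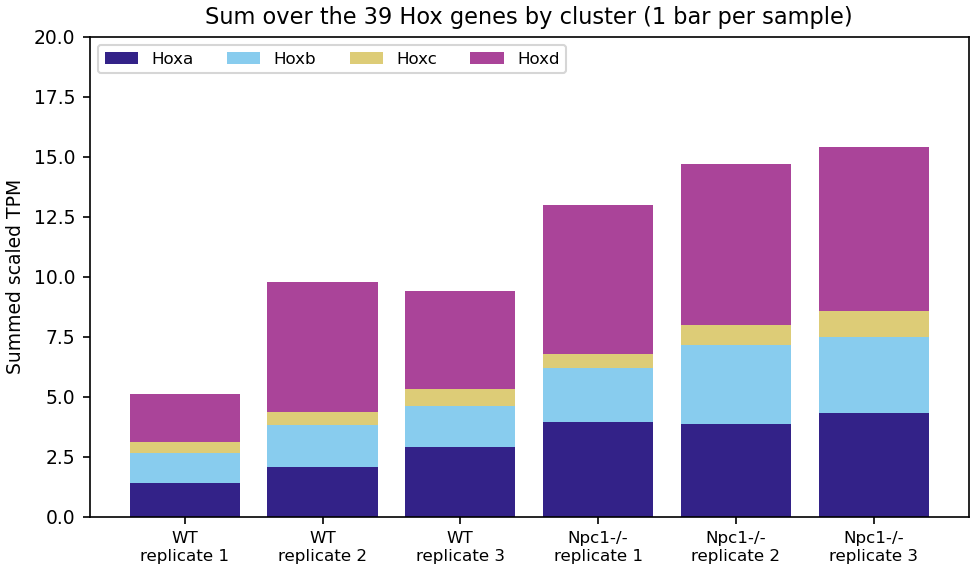
Summed scaled TPM of the 39 Hox genes in each sample, split by cluster. The Npc1-/- bars reach 13 to 15.4 and the WT bars 5.10 to 9.79, and Hoxd is the largest part of each bar.

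The scaling bears on these values. Without size factors the median log2 fold change of all genes tested was -0.33, and that of the 5 Hox genes was 0.34. All 18 Hox genes with at least 0.1 TPM kept a log2 difference above 0 under the deposited scale and under quantile normalization. Of all 19105 genes at that level, 3440 had one above 0 on the deposited scale and 9773 after quantile normalization. With size factors, all Npc1-/- samples lay above all WT samples in 7 of the 18 Hox genes. The number was 3 on the deposited scale and 8 after quantile normalization. Over the 19105 genes the numbers were 2297, 496 and 2269 on these 3 scales. The ratio of the summed Hox level was 1.40 on the deposited scale, still with no overlap. On that scale the Hoxd sum did overlap, at 2.55 to 6.01 TPM in WT and 4.99 to 6.86 TPM in Npc1-/- samples, and so did the sum without Hoxd8, at 5.35 to 8.88 and 8.31 to 11.43 TPM. In both sums WT replicate 2 was the only WT sample that overlapped, and Hoxd3 stood at 1.86 TPM in it.

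The clusters also give rise to noncoding RNAs. Of 11 long noncoding RNA genes of the clusters found in the table, 3 were tested and none was called. Hotairm1, which regulates the anterior Hoxa genes, had the highest level of any transcript in the clusters, at a scaled TPM of 3.83, 7.33 and 2.83 in WT against 7.03, 10.4 and 12.3 in Npc1-/- replicates 1 to 3. Its log2 fold change was 1.07 with a standard error of 0.33, and WT replicate 2 overlapped with the Npc1-/- samples (limma adjusted p = 0.120). Haglr, which overlaps Hoxd3 on the other strand, had a log2 fold change of 0.60 with a standard error of 0.23 (limma adjusted p = 0.186). Hoxd3os1, which overlaps Hoxd3, Hoxd4 and Hoxd8 on the other strand, had a log2 fold change of 0.56 with a standard error of 0.34 (limma adjusted p = 0.393).

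Whether strand was used in counting is not given in the sources used here, so antisense and sense reads may be mixed at these positions. The 6 microRNA genes of the clusters (Mir10a, Mir10b, Mir196a-1, Mir196a-2, Mir196b and Mir615) were listed at 0 in all 6 samples, in libraries made from poly(A) RNA.

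HOX proteins bind DNA with TALE homeodomain cofactors of the PBX, MEIS and PKNOX families. All 9 cofactor genes were tested and none was called, with a median log2 fold change of 0.12 with size factors and -0.24 on the deposited scale, where the median of all genes was -0.33. Pbx2 and Meis3, with levels among the highest of the list, had log2 fold changes of 0.12 and 0.16. Pbx4 had the largest difference, at a scaled TPM of 2.22, 1.93 and 3.11 in WT against 3.34, 4.95 and 6.23 in Npc1-/- replicates 1 to 3, with a log2 fold change of 0.85 and a standard error of 0.24. Its groups did not overlap, and it did not pass the threshold (limma adjusted p = 0.10).

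Among regulators of Hox expression in the hindbrain (among them retinoic acid receptors and enzymes, Egr2 and the Cdx genes), 9 of 16 were tested and none was called, with a median log2 fold change of -0.27. Rarb, a retinoic acid receptor that is itself switched on by retinoic acid, was at a scaled TPM of 0.618, 0.479 and 0.395 in WT against 1.01, 1.85 and 1.29 in Npc1-/- replicates 1 to 3. Its log2 fold change was 0.90 with a standard error of 0.22 (limma adjusted p = 0.0757). Rarg, another retinoic acid receptor, went the other way, at 5.33, 5.11 and 4.94 in WT against 3.89, 3.25 and 3.50 in Npc1-/- replicates 1 to 3. Its log2 fold change was -0.48 with a standard error of 0.11 (limma adjusted p = 0.0710). The retinoid X receptors Rxrb and Rxra, with the highest levels of the list, had log2 fold changes of 0.11 and -0.27.

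Other genes of regional identity were set beside the Hox genes. Of 11 transcription factors of the midbrain and anterior hindbrain, 6 were tested and none was called, with a median log2 fold change of 0.32. Their summed scaled TPM was 10.4 to 13 in WT and 14.3 to 18.4 in Npc1-/- samples, with no overlap. On the deposited scale the sums overlapped, at 11.5 to 16.8 TPM in WT and 10.4 to 20.3 TPM in Npc1-/- samples. Irx1 had a log2 fold change of 0.70 (limma adjusted p = 0.137), En2, an organizer of the midbrain-hindbrain boundary and cerebellum, of 0.46 (limma adjusted p = 0.144) and Irx2 of 0.33 (limma adjusted p = 0.202). On the deposited scale, 4 of the 6 had a log2 difference above 0, against 5 with size factors.

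Of 16 forebrain transcription factors, 11 were tested and none was called, with a median log2 fold change of -0.24 and 10 of the 11 below 0. Lhx2, which directs cortical and eye development, was at a scaled TPM of 6.42, 5.04 and 6.77 in WT against 3.99, 3.43 and 4.09 in Npc1-/- replicates 1 to 3. Its log2 fold change was -0.59 with a standard error of 0.14 (limma adjusted p = 0.0733). Emx2, a cortical patterning gene, had a log2 fold change of -0.65 (limma adjusted p = 0.0998). The 2 with the highest levels, Otx2 and Pax6, had log2 fold changes of -0.29 and 0.24. The summed level of the forebrain list overlapped between the genotypes, at 33.6 to 57.4 in WT and 25.8 to 48.3 in Npc1-/- samples.

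**Figure D5:**
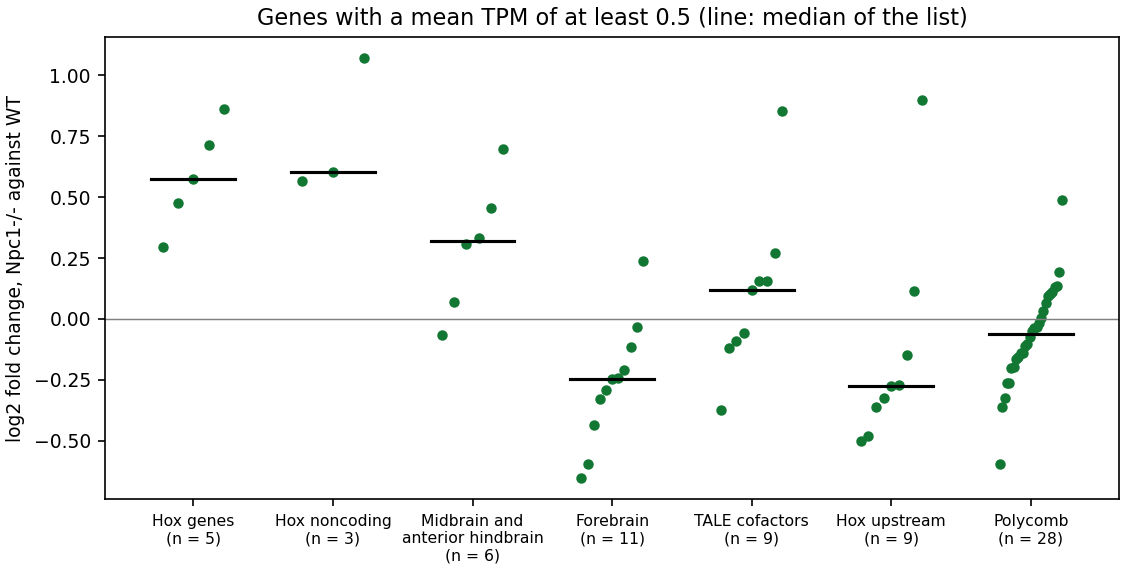
log2 fold change (Npc1-/- against WT) of every gene with a mean of at least 0.5 TPM in 7 lists, 1 point per gene, with the median of each list as a line. The 5 Hox genes lie between 0.29 and 0.86 around a median of 0.57, the midbrain and anterior hindbrain list has a median of 0.32 and the forebrain list a median of -0.24; no gene shown was called.

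The Polycomb and trithorax groups, which keep Hox genes off and on, were tested as well. Of 28 Polycomb group and H3K27 demethylase genes tested, none was called, and the median log2 fold change was -0.06. Pcgf5, a subunit of a Polycomb complex, had the smallest p, with a log2 fold change of -0.60 and a standard error of 0.14 (limma adjusted p = 0.0714). Ring1, a catalytic subunit, had a log2 fold change of 0.49 (limma adjusted p = 0.121). Phc2, Phc1 and Cbx6, the 3 with the highest levels, had log2 fold changes of 0.07, 0.0024 and -0.02. None of the 10 trithorax group genes tested was called, with a median of -0.04. Kmt2a, the H3K4 methyltransferase that maintains Hox expression, had a log2 fold change of -0.32 (limma adjusted p = 0.15), and Psip1, Dpy30 and Ash2l, with the highest levels, had 0.15, 0.10 and 0.01.

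Other developmental regulators that Polycomb complexes silence in many tissues were described in the same way. Of 46 such homeobox, T-box, PAX and GATA genes, 15 had a mean of at least 0.5 TPM and none was called, with 5 log2 fold changes above 0, 10 below 0 and a median of -0.25. Tbx15 had a log2 fold change of -0.75 (limma adjusted p = 0.0733) and Prrx1 of -0.65 (limma adjusted p = 0.108), and both are known from connective tissue. Msx1, Tbx1 and Barhl1, with the highest levels, had -0.45, -0.13 and 0.27. The 49 protein-coding genes within 500 kb of the clusters but outside them gave 34 tested genes, of which none was called, with 17 log2 fold changes above 0, 17 below 0 and a median of -0.0028.

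Markers of other cell types moved between the groups alongside the Hox genes, and their part in the Hox differences was not tested. All 13 pan-neuronal markers were tested, and 12 had a log2 fold change above 0, against 51.0% of all genes tested. On the deposited scale 8 did, against 2133 of 15245 genes. The other 1 of the 13 was at -0.31 with size factors, with all Npc1-/- samples below all WT samples. Nefl, Nefm (neurofilament subunits) and Stmn3 rose, with log2 fold changes of 1.22, 1.11 and 0.66 (limma adjusted p = 0.0185, 0.0134 and 0.0364). Called higher were thus 3 of the 13, against 0.4% of all genes tested. The summed scaled TPM of the 13 markers was 375 to 416 in WT and 490 to 572 in Npc1-/- samples. On the deposited scale the sums overlapped, at 414 to 539 TPM in WT and 396 to 630 TPM in Npc1-/- samples. All 6 Purkinje cell markers were tested, and Pcp2, Pvalb and Car8 rose, with log2 fold changes of 1.60, 1.62 and 1.24 (limma adjusted p = 0.00674, 0.00255 and 0.0133). Of the 6, 3 were called higher, against 0.4% of all genes tested, and 5 had a log2 fold change above 0, against 51.0%. The exception was Itpr1, named after its value was seen, with a log2 fold change of -0.72 (limma adjusted p = 0.105) and all Npc1-/- samples below all WT samples. The sum of the 6 was 220 to 255 in WT and 622 to 740 in Npc1-/- samples. Purkinje cells lie in the cerebellum, and which cells held the Hox transcripts was not measured in these bulk samples.

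Markers were also read for neurons of the brainstem, where Hox genes of the detected groups are known to be used. Their part in the Hox levels and differences was not tested. Of 12 brainstem and cranial motor neuron markers, 2 had a mean of at least 0.5 TPM, against 27.5% of all genes and 61.9% of protein-coding genes. These were Prph with a log2 fold change of 0.40 and Slc17a6 with 0.0049, and neither was called. The 12 genes summed to 2.12 to 3.46 in WT and 2.87 to 4.24 in Npc1-/- samples, which overlapped. None of the 12 was at 0 in every sample, and the cholinergic markers Chat and Slc18a3 did not exceed 0.220 and 0.0454 scaled TPM in any sample.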

How the data were processed

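Poly(A) RNA-seq of O4-bead-bound brain cells from 3 WT and 3 Npc1-/- mice was used. The methods describe trimming with bbduk, mapping to GRCm38 with STAR and counting with featureCounts. The submitters' processing notes instead name cutadapt 2.3, STAR 2.7.8a and RSEM 1.3.3, without roles. How the authors made the deposited TPM and FPKM values (2 decimals, 55492 genes), and whether strand was used, is not given in the sources used here. These are not counts, so no count test was run. Depth was estimated from the steps of low FPKM values in genes with 1 transcript, of which 81.5% to 83.3% lay within 0.15 of a whole fragment.

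TPM was divided by median-of-ratios size factors (18690 genes above 0 in every sample) and 0.5 was added before log2. Genes whose mean TPM was 0.5 or more were fitted on genotype with limma 3.58.1 (R 4.3.3, eBayes with trend) and p-values were Benjamini-Hochberg adjusted over all genes tested. Fold changes on this scale understate those of low genes. Tested on simulated data for this comparison over 15245 genes, the fit found 78% of the 200 genes given a log2 change of 1.5 and called 3 unchanged ones. Changes of the size fitted for the 5 tested Hox genes (0.29 to 0.86) were not simulated, so the 78% does not apply to them. Positions and transcripts came from GENCODE M21 (55141 identifiers found) and promoter windows from RefSeq on GRCm38.p6.

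The Hox genes and all other lists were chosen with earlier results of these data known. Hox genes were named by level, those at a mean of 0.5 TPM or more with every sample's value, others by counts and range. From each other list the called genes were named or, where none was, the 3 with the highest level and the 2 with the smallest p. Hoxa2, Hoxa7, Hoxb2 and Hoxb8 were given by sample after their values were seen. Some genes that these rules name are not reported here. Alternatives were FPKM, the deposited scale, quantile normalization, other pseudocounts, filters and variance models, the replicate number as a block, and each sample left out. The p-values measure the spread between these mice.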

Additional observations from a re-analysis of the deposited data

How the results depend on the processing

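No Hox gene was called with FPKM, the deposited scale, quantile normalization, other pseudocounts, other filters, other variance models or any sample left out. With a mean TPM of at least 5 no Hox gene was tested. The number of genes called overall was 924 on the deposited scale, 225 after quantile normalization, 21 without a filter, 72 with a mean TPM of at least 0.1, 447 with a mean TPM of at least 5 and 42 without trend, and 5 to 488 with 1 sample left out, against 124. The cause was not tested beyond the change in genes tested or in samples. On the deposited scale 54 calls were higher and 870 lower in Npc1-/-, against 61 and 63. The median Hox log2 fold change was 0.34 on the deposited scale, 0.90 with a pseudocount of 0.1, 0.20 without a filter (32 Hox genes) and 0.30 with a mean TPM of at least 0.1, and 0.43 to 0.71 with 1 sample left out. Hoxd3 turned to -0.058 without WT replicate 1 and -0.0082 without WT replicate 3 and ranged from -0.058 to 0.95 with 1 sample left out. The other 4 tested Hox genes kept a fold change above 0 under every alternative in which they were tested. The summed Hox level kept its direction throughout, with a log2 ratio of 0.58 to 0.99 when 1 sample was left out. The number of Hox genes detected was 18 at 0.1 TPM and 3 at 1 TPM, and 5 to 8 at 0.5 TPM with 1 sample left out, the 8 being without WT replicate 1.

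The replicate numbers of the labels were not taken to pair the mice, since deviations of same-numbered samples correlated at 0.414, 0.0602 and 0.326, not all above 0.1, and no label gives the numbers a meaning. Each of the 6 samples did correlate best with its own number, a hint of pairing from the data and not from the design. With the replicate block, 2011 genes were called, among them 2 Hox genes, Hoxa4 (limma adjusted p = 0.0401) and Hoxd8 (limma adjusted p = 0.0279).

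At these depths the Hox genes below 0.1 TPM rest on few fragments, and TPM rounded to 2 decimals limits them further. Of the 18 genes with at least 0.1 TPM, 4 also had an estimate under 10 fragments in at least 1 sample.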

Other observations

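The remaining cell type markers describe what else the bead-bound cells held, and their part in the Hox differences was not tested. Of the 14 oligodendrocyte lineage markers none was called, with a median log2 fold change of 0.16 with size factors, -0.21 on the deposited scale and -0.08 after quantile normalization. Their summed scaled TPM overlapped between the genotypes. Mbp and Mobp had levels among the highest of that list. None of the 7 cerebellar granule neuron markers was called, and their sum was 53.0 to 117 in WT and 45.6 to 128 in Npc1-/- samples, with replicate 1 highest in each genotype. The same held for Schwann cell markers, of which 4 of 8 were tested and none called: the sum was 14.4 in WT replicate 1 and 17.5 in Npc1-/- replicate 1, against 2.83 to 3.62 in the other samples. WT replicate 1, the sample with the lowest Hox sum, thus had the highest granule neuron and Schwann cell marker sums among the WT samples. This was not particular to these lists. Among the WT samples it also had the highest sums of pan-neuronal, brainstem neuron, Purkinje cell and astrocyte markers. It was likewise highest for microglia, endothelial, pericyte, fibroblast, and ependymal and choroid plexus markers. It was not highest for leucocyte markers and was lowest for oligodendrocyte lineage and erythroid markers.

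Several lists of cells outside the neural tube, or of other glia, were lower in Npc1-/- samples while the Hox sum was higher. Tmem119, a microglia marker, fell by 1.44 on the log2 scale (limma adjusted p = 0.0442) as the only called gene of 7. The microglia sum was 199 to 318 in WT and 89.8 to 177 in Npc1-/- samples. Rarres2 fell by 0.77 (limma adjusted p = 0.0364) as the only called gene of the 6 ependymal and choroid plexus markers. Over all genes tested, 0.413% were called lower in Npc1-/-. No gene was called among the 6 endothelial, 5 pericyte and 6 fibroblast markers, and their sums did not overlap between genotypes: 773 to 939 against 421 to 676 for endothelial, 330 to 490 against 199 to 251 for pericyte and 66.8 to 104 against 43.4 to 65.1 for fibroblast markers. None of the 7 astrocyte markers was called and their sums overlapped. Of the 7, 6 had a log2 fold change below 0, and the median was -0.42. In 5 all Npc1-/- samples lay below all WT samples, against 14.2% of all genes tested. The other 1 went the opposite way, with a log2 fold change of 1.01 and all Npc1-/- samples above all WT samples. Erythroid and blood leucocyte markers had no called gene and overlapping sums.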
